A study of Mus musculus with 16 samples.

Results

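The 10 genes studied here belong to the antioxidant defence of the heart and were followed in the left ventricle of male and female mice after aortic banding or a sham operation. They were chosen by name, with earlier results of these data known. They are the superoxide dismutases Sod1, Sod2 and Sod3 and the peroxide-removing enzymes Cat, Gpx1, Gpx3 and Prdx3. The list also holds the thioredoxin inhibitor Txnip and the stress-response enzymes Hmox1 and Nqo1. Txnip is a regulator and not an enzyme. All 10 genes were found among the 12393 genes that the array annotation names with 1 symbol, and together they carry 16 of 20380 such probe sets. Expression was measured on 16 Affymetrix arrays, each hybridised with the RNA of a separate animal, in 4 groups of 4, which combine sex with the operation, TAC or sham. TAC, transverse aortic constriction, narrows the aorta and loads the left ventricle with pressure. All mice were of the strain C57BL/6J and 12 to 14 weeks old, none carried a transgene by the labels, and the ventricle was taken 14 days after the operation. The series addresses whether the early response to pressure overload differs between the sexes. Ketamine with isoflurane is recorded for banding. Buprenorphine was given for the first 2 days after the operation, and the sham protocol names no anaesthetic. C57BL/6J mice are known to carry a deletion in Nnt, a mitochondrial enzyme that regenerates NADPH, and this limits the strain as a model of mitochondrial peroxide removal. Where the array's Nnt probe set lies relative to that deletion was not analysed here.

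Superoxide that leaks from the respiratory chain or is made by oxidases is turned into hydrogen peroxide by the superoxide dismutases, each in its own compartment. The peroxide is then removed by catalase, by glutathione peroxidases at the cost of glutathione, and by peroxiredoxins at the cost of thioredoxin. Heart muscle is rich in mitochondria and depends on this system. NRF2, a transcription factor released from its inhibitor KEAP1 under oxidative stress, binds the antioxidant response element and is known to drive genes such as Nqo1 and Hmox1.

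RefSeq promoters of assembly GRCm38.p6 were matched by symbol for 8 of the 10 genes: Sod1, Sod2, Cat, Gpx1, Gpx3, Prdx3, Txnip and Nqo1. The 250 bases before the annotated start were searched on both strands for the core of the antioxidant response element, TGACNNNGC, for the E-box CACGTG, which the Mondo factors that drive Txnip bind in tandem, and for the AP-1 site TGANTCA. Of 32851 promoter windows of that length, 10.2% held the first, 6.02% the second and 6.75% the third. Among the 8 genes, Sod1 was the only one with a match to these exact letters. It held an antioxidant response element core on the minus strand, from 56 to 48 bases before the start, printed in capitals. Sites that vary from the letters searched, such as the repeated CACGAG in the Txnip window, were not counted, so Mondo sites of that kind were not examined. The windows of Sod2, Gpx1, Gpx3, Prdx3, Txnip and Nqo1, each called after banding in at least 1 sex on at least 1 probe set, and of Sod1 are shown 5′ to 3′ on the gene's strand, because these letters are the sequence context of the values that follow. The windows ranged in base composition from 42.0% G and C in Gpx1 to 66.8% in Txnip, against a median of 52.4% over all windows. A match is a description of these letters and marks no tested site.
Sod2 (chr17:13007589-13007838, plus strand): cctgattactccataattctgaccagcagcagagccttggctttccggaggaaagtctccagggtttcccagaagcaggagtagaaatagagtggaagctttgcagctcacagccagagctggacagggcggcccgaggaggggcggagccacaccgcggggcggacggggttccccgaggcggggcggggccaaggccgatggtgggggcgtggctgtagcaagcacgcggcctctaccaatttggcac
Gpx1 (chr9:108338830-108339079, plus strand): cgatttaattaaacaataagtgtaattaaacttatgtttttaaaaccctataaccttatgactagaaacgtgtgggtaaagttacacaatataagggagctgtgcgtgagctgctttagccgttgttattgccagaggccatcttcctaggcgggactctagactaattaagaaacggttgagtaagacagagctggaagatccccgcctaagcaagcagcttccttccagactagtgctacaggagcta
Gpx3 (chr11:54902604-54902853, plus strand): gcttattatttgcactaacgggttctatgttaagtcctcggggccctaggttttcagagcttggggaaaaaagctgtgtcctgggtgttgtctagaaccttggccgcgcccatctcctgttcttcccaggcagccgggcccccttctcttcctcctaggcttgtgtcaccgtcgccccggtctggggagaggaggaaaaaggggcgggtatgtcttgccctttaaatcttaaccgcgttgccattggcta
Prdx3 (chr19:60874539-60874788, minus strand): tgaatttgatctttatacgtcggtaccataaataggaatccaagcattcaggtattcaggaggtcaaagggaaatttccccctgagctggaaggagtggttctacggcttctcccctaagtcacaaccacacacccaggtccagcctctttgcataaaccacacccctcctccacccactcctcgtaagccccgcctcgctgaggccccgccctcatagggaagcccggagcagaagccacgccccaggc
Txnip (chr3:96557707-96557956, plus strand): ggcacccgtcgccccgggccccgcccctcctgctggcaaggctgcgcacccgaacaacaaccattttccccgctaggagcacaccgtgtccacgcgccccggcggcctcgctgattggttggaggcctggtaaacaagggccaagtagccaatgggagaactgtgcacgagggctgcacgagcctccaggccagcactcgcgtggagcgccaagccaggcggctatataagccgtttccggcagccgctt
Nqo1 (chr8:107403206-107403455, minus strand): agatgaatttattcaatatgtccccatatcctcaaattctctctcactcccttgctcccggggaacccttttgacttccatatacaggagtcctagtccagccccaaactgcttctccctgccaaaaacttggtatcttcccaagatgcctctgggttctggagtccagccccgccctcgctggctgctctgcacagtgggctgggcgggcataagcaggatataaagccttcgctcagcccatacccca
Sod1 (chr16:90220512-90220761, plus strand): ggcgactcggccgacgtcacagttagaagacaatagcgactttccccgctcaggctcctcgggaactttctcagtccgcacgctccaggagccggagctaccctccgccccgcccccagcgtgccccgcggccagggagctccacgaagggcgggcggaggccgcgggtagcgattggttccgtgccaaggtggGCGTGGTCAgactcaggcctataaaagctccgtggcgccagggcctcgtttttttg

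Signals are the deposited linear values, on which the mean of each array without its highest and lowest 2% of probe sets was 500.2. Differences are TAC minus sham of log2(signal + 16), which understates the change of dim probe sets, and were tested with limma over 13576 probe sets with Benjamini-Hochberg adjustment, at an adjusted p under 0.05. All 16 probe sets of the 10 genes lay above the limit that left out the dimmest 40%. Where a gene has several probe sets, the brightest over all arrays is called leading. Probe sets differ in how strongly they bind, so signals were not compared between them. Fewer cells of a type and less RNA per cell cannot be told apart in these whole-tissue samples.

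Of 6 tests of RNA and labelling measures between the operations, 4 passed. The Gapdh ratio, which sets the signal of the 3′ end of that transcript against the 5′ end, was 0.885 ± 0.039 (SD, n = 4) in male sham and 1.08 ± 0.070 in male TAC, 0.865 ± 0.058 in female sham and 0.989 ± 0.030 in female TAC. TAC and sham arrays did not overlap in either sex (exact permutation test, 2-sided, p = 0.0286 in each, the smallest 4 against 4 allow; adjusted over 6 tests 0.0429). The 18S ribosomal signal differed by -3.01 on the log2 scale in males (adjusted p = 0.0685, exact permutation test) and by -1.75 in females (adjusted p = 0.0429, exact permutation test). The actin ratio of 3′ to 5′ signal was higher by 0.27 in males (adjusted p = 0.114, exact permutation test), which did not pass, and by 0.36 in females (adjusted p = 0.0429, exact permutation test). Of the cardiomyocyte markers, 8 of 10 fell over both sexes and none rose, and their summed signal ranged from 356960 to 431139 in male sham, 298350 to 356665 in male TAC, 364940 to 397227 in female sham and 260534 to 327938 in female TAC. Of the fibroblast markers, 5 of 10 rose, with sums of 19133 to 22945 in male sham, 33387 to 56348 in male TAC, 22529.5 to 26583 in female sham and 31823 to 45347 in female TAC. Of the macrophage and monocyte markers, 6 of 10 rose, with sums of 9958 to 14047 in male sham, 14876 to 15926 in male TAC, 9788 to 11252 in female sham and 12156 to 17787 in female TAC. The median difference of the 8 endothelial markers was -0.07. Of the smooth muscle and pericyte markers, 2 of 6 rose over both sexes and none fell, with a median difference of -0.10. In females none rose and 1 fell. Their sums were 13121 to 17415 in male sham and 15206 to 17206 in male TAC. In females they were 18613.5 to 21834 after sham and 13127 to 18307 after TAC, without overlap. Above the limit that left out the dimmest 40% lay 2 of 4 neutrophil, 2 of 6 lymphocyte, 2 of 5 erythroid and 1 of 4 adipocyte markers, and 0 of 5 of skeletal muscle. What share of the members' values these cells and measures carry was not tested. The Gapdh ratio or the 18S signal, put in the model, ended several calls, as given beside the genes.

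After banding, Gpx1 and Gpx3 rose and Prdx3 fell in both sexes, Nqo1 was called in males, and Cat was not called on its leading probe set. Banding left the leading probe sets of all 3 superoxide dismutases uncalled. In males, 3 leading probe sets rose (Gpx1, Gpx3 and Nqo1) and 1 fell (Prdx3), which is 4 of 10 beside 15.9% of the leading probe sets of all 8272 genes tested (8.1% higher, 7.77% lower). In females, 2 rose (Gpx1 and Gpx3) and 1 fell (Prdx3), 3 of 10 beside 13.1% (6.37% higher, 6.69% lower). Averaged over the sexes, Gpx1, Gpx3 and Nqo1 rose and Prdx3 fell, 4 of 10 beside 26.5% (13.4% higher, 13.1% lower). Counting all 16 probe sets, 3 rose and 3 fell in males (17.8% of all probe sets were called, 8.07% higher and 9.77% lower), 2 rose and 2 fell in females (15.1%, 6.46% higher and 8.6% lower), and 3 rose and 4 fell on average (28.7%, 12.9% higher and 15.8% lower). The TAC and sham arrays did not overlap for 5 leading probe sets in males and 2 in females, where 19.6% and 19.9% of all probe sets did not. The median difference of the 10 genes was 0.09 in males and 0.07 in females, and that of all genes was -0.01 in both. The members were chosen with earlier results of these data known, so their counts beside these shares are a description and no test.

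**Figure D1:**
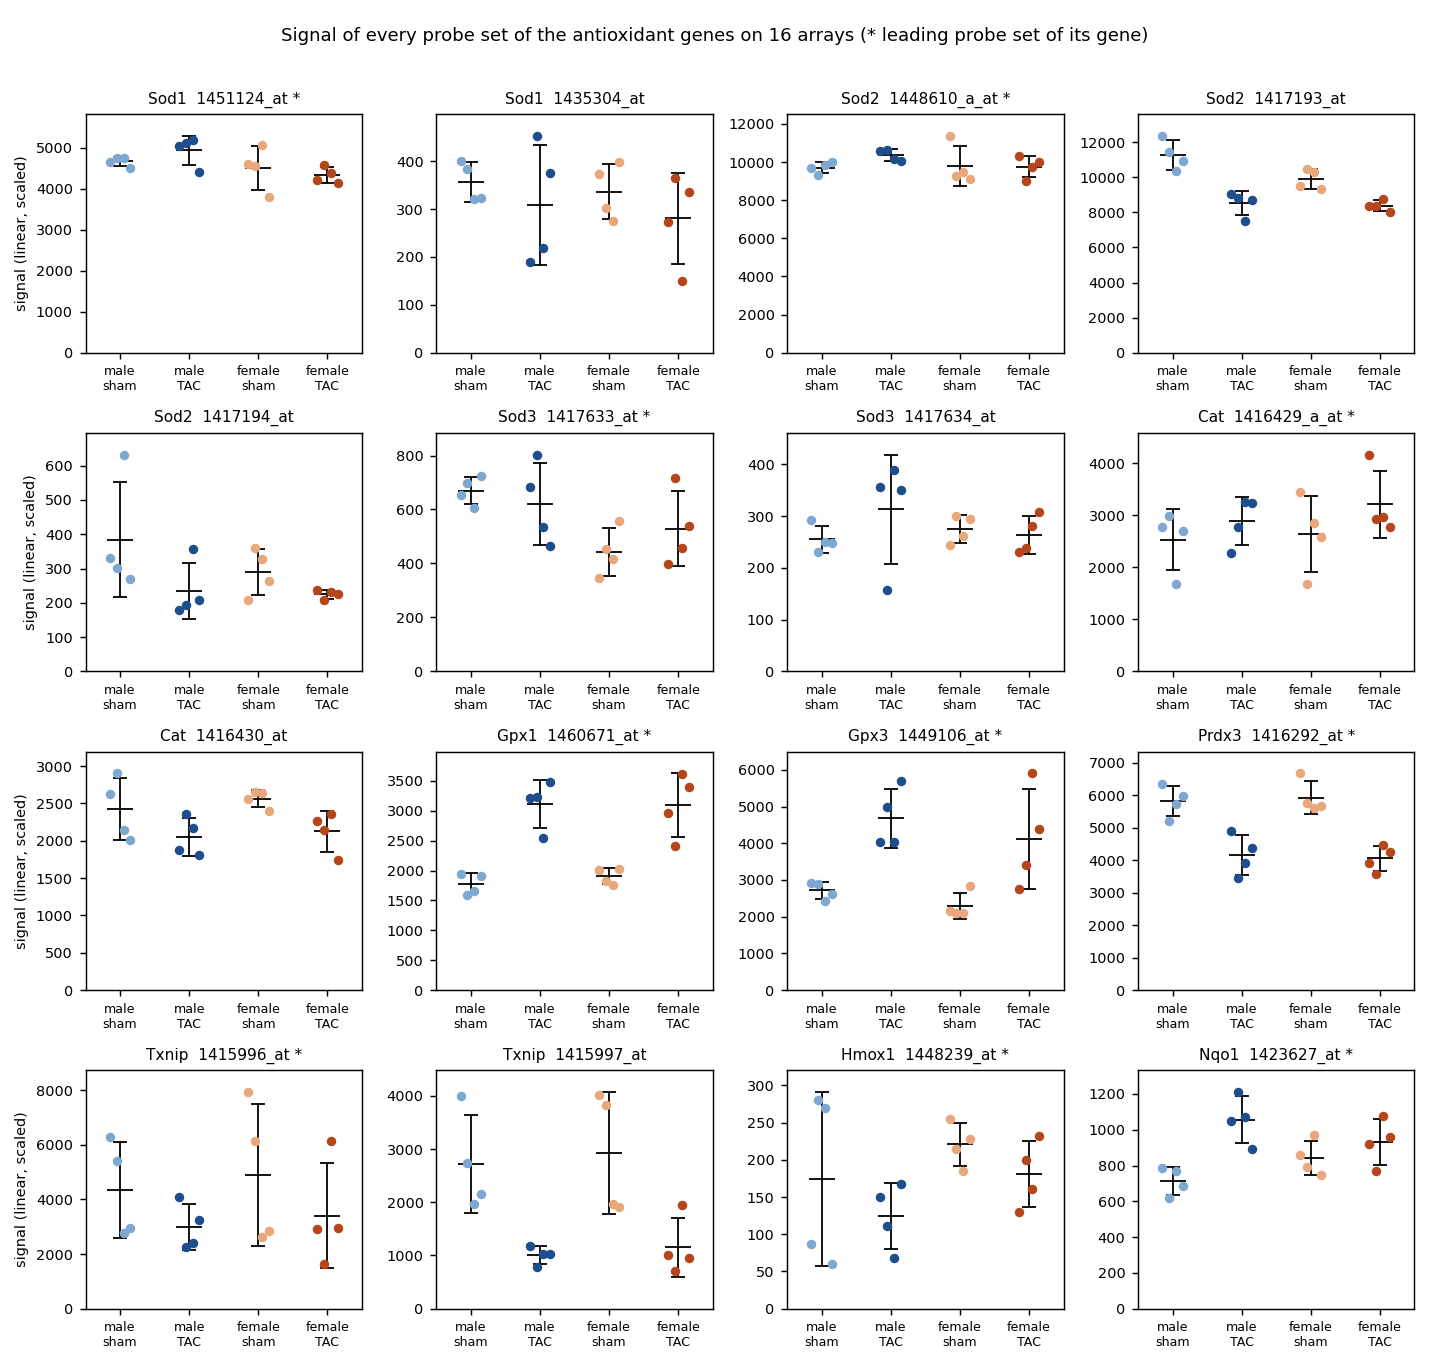
Deposited signal (linear, scaled) of each of the 16 probe sets on 16 arrays, by group. Points are animals, the long bar is the group mean and the whiskers are 1 SD (n = 4); Gpx1 lies above its sham arrays on every TAC array and Prdx3 below them, while the Sod1 and Hmox1 groups overlap.

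Gpx1, the selenium-dependent glutathione peroxidase of cytosol and mitochondria, was higher after banding in both sexes. Its signal on the male sham arrays was 1950.4, 1597, 1664 and 1902, and on the male TAC arrays 3219, 3234, 2545 and 3475. The female sham arrays gave 2013, 1833, 1754 and 2028, and the female TAC arrays 2963, 2413, 3617 and 3401. Every TAC array lay above every sham array of both sexes. The rise was 1.74-fold in males (log2 difference 0.80, SE 0.13, adjusted p = 0.000229) and 1.60-fold in females (0.68, SE 0.13, adjusted p = 0.0013). Averaged over the sexes, Gpx1 rose by 0.74 (adjusted p = 4.71e-06). With the Gapdh ratio in the model the male difference was 0.87 with an adjusted p of 0.0518, so the call was lost there, and the adjusted p ranged from 0.000105 to 0.0518 over the alternatives.

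Gpx3, the glutathione peroxidase secreted into plasma and the extracellular space, rose by a like amount. The male sham arrays read 2922, 2893, 2436 and 2625, and the male TAC arrays 4026, 4977, 4037 and 5684. In females the sham arrays read 2163, 2099.5, 2113 and 2826, and the TAC arrays 2756, 3417, 5909 and 4381. The groups did not overlap in males, and in females the lowest TAC array lay below the highest sham array. Gpx3 rose 1.70-fold in males (0.77, SE 0.18, adjusted p = 0.00476) and 1.73-fold in females (0.79, SE 0.18, adjusted p = 0.00465). The female TAC arrays were the most spread of the 4 groups, with an SD of 1369 around a mean of 4116. With the Gapdh ratio in the model the differences kept their size, at 0.75 in males and 0.78 in females, but were not called (adjusted p = 0.232 and 0.108; 0.76 averaged, 0.101). In males the adjusted p ranged from 0.00105 to 0.232 over the alternatives, and in females from 0.00075 to 0.108.

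Prdx3, the peroxiredoxin of the mitochondrial matrix, went the other way. On the male arrays its signal was 6344, 5214, 5729.6 and 5978 after sham and 4908, 3455, 3909.6 and 4375 after TAC. On the female arrays it was 6676, 5758, 5593 and 5657 after sham and 3911, 3581, 4473 and 4258 after TAC. No TAC array of either sex reached the lowest sham array of either sex. Prdx3 fell 1.40-fold in males (-0.49, SE 0.11, adjusted p = 0.00442) and 1.46-fold in females (-0.55, SE 0.11, adjusted p = 0.00236). The fall moved beside that of the cardiomyocyte markers, whose median difference was -0.33 on average against -0.52 for Prdx3. With the Gapdh ratio in the model the Prdx3 difference shrank to -0.22 in males and -0.36 in females and was not called (adjusted p = 0.6 and 0.202; -0.29 averaged, 0.304), and with the 18S signal it was -0.43 in males (adjusted p = 0.131). In males the adjusted p ranged from 0.00144 to 0.6 over the alternatives, and in females from 0.000555 to 0.202.

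Cat, the catalase of peroxisomes, gave no change that both of its probe sets shared. The leading probe set, 1416429_a_at, read 2774, 2978, 1682 and 2701 in male sham and 2275, 2779, 3254 and 3230.1 in male TAC. It read 3453, 1679.9, 2851 and 2578 in female sham and 4168, 2935, 2966 and 2773 in female TAC. The groups overlapped in both sexes, with differences of 0.20 (95% interval -0.22 to 0.63, adjusted p = 0.549) and 0.31 (-0.12 to 0.73, adjusted p = 0.345). The other probe set, 1416430_at, ran from 2012 to 2906 in male sham, 1809.9 to 2356 in male TAC, 2400.3 to 2651 in female sham and 1739.8 to 2360.5 in female TAC. TAC and sham did not overlap in females and did in males. It fell on average over the sexes by 0.25 (SE 0.09, adjusted p = 0.0458), and was not called in males (-0.23, adjusted p = 0.253) or females (-0.27, adjusted p = 0.174). That call was lost under 15 of 27 alternatives, whose adjusted p ranged from 0.0237 to 0.49, among them the omission of male TAC 1 or 5, female TAC 2 or 5, male sham 1 or 2, or female sham 1, 2 or 3. Without female TAC 5, for example, it was -0.20 with an adjusted p of 0.104. With the 18S signal in the model it was -0.42 (adjusted p = 0.0536) and with the Gapdh ratio -0.26 (adjusted p = 0.49).

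Sod1, the copper and zinc enzyme of the cytosol, was not called in any comparison. Its leading probe set read 4663, 4739, 4754 and 4509 in male sham and 5035, 5114, 5179 and 4411 in male TAC. In females it read 4601, 4546, 5073 and 3798 after sham and 4223, 4579, 4386 and 4128 after TAC. The groups overlapped, and the intervals bounded the change closely: 0.08 in males (-0.12 to 0.28) and -0.05 in females (-0.25 to 0.15). The dimmer probe set, 1435304_at, was -0.27 in males and -0.30 in females, with adjusted p values of 0.544 and 0.51.

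Sod2, the manganese enzyme of the mitochondrial matrix, gave different answers on its 3 probe sets. The leading one, 1448610_a_at, read 9712, 9299, 9834 and 10002 in male sham and 10586, 10652, 10162 and 10065 in male TAC. In females it read 11375, 9278, 9493 and 9103 after sham and 10319.6, 9001, 9719.6 and 10004 after TAC. The male groups did not overlap, but the difference of 0.09 was small and not called (adjusted p = 0.504), and the female difference was -0.003 (adjusted p = 0.986). Probe set 1417193_at read 12357, 11426, 10343 and 10938 in male sham and 9044, 8800.0, 7528 and 8680.4 in male TAC. On the female arrays it read 9513, 10465, 10280.2 and 9353 after sham and 8385, 8362, 8773 and 8021 after TAC. TAC lay below sham without overlap in both sexes on this probe set. It fell by 0.40 in males (SE 0.09, adjusted p = 0.00248), and the female difference of -0.24 was not called (adjusted p = 0.0678). The average fell by 0.32 (adjusted p = 0.00044), and that call was lost with the Gapdh ratio in the model (-0.43, adjusted p = 0.0501, out of a range of 9.48e-05 to 0.0501). The male call was lost with the 18S signal (-0.38, adjusted p = 0.0788) or the Gapdh ratio in the model (-0.53, adjusted p = 0.0645), and its adjusted p ranged from 0.000721 to 0.0788 over the alternatives. The dimmest, 1417194_at, differed in the direction of 1417193_at, by -0.64 in males (adjusted p = 0.0949) and -0.31 in females (adjusted p = 0.471). Its average of -0.48 was not called (adjusted p = 0.0559), but was called under 4 of 26 alternatives. Without male TAC 4 its male difference was -0.85 and was called (adjusted p = 0.0283).

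Sod3, the secreted superoxide dismutase, was not called after banding. Its leading probe set read 653, 698, 607 and 722 in male sham and 684, 804, 534 and 464 in male TAC. In females the values were 347, 452, 415 and 558 after sham and 399, 718, 459 and 537 after TAC. The differences were -0.13 in males (adjusted p = 0.701) and 0.23 in females (adjusted p = 0.48). The TAC arrays spread around the sham arrays in males and overlapped them in females. The dimmer probe set, 1417634_at, differed by 0.21 in males and -0.06 in females and was not called.

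**Figure D2:**
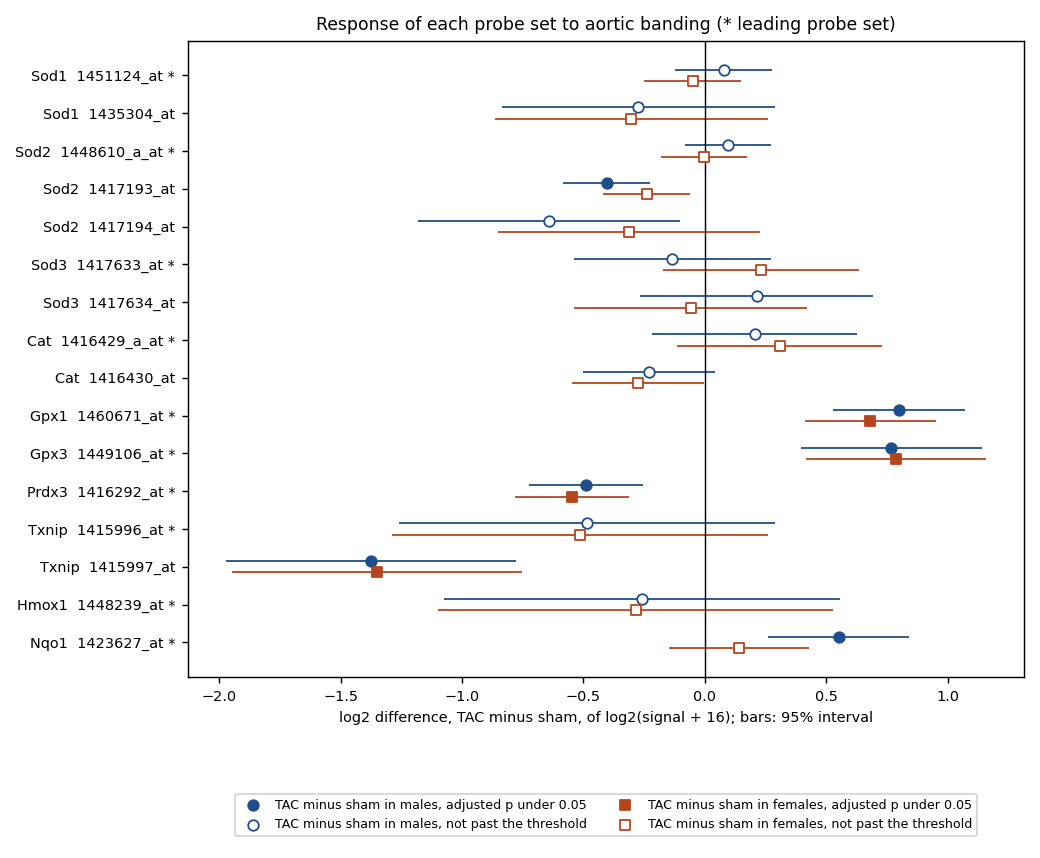
Difference TAC minus sham of log2(signal + 16) for each probe set in males (circles) and females (squares), with its 95% interval. Filled symbols passed an adjusted p of 0.05; the filled symbols lie right of 0 for Gpx1, Gpx3 and male Nqo1, and left of it for Prdx3, Txnip 1415997_at and male Sod2 1417193_at.

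Txnip binds reduced thioredoxin and limits its activity, and its transcription is known to be induced by glucose. Its probe set 1415997_at fell after banding while the leading one, 1415996_at, was not called. Probe set 1415997_at read 4003, 2742, 1967 and 2156 in male sham and 1187, 787, 1027 and 1032 in male TAC. On the female arrays it read 4011, 3828, 1972 and 1914 after sham and 1008, 699.8, 1958 and 951 after TAC. The male groups did not overlap, and in females 1 TAC array, female TAC 3, lay within the sham range. The signal was 2.59-fold lower in males (-1.37, SE 0.29, adjusted p = 0.0021) and 2.55-fold lower in females (-1.35, SE 0.29, adjusted p = 0.0029). On 1415996_at the male sham arrays read 6263, 5421, 2753 and 2968, and the male TAC arrays 4078, 2264, 2406 and 3231. The female sham arrays read 7933, 6151, 2605 and 2859.9, and the female TAC arrays 2924, 1639, 6121 and 2945. These groups overlapped, with differences of -0.49 in males (adjusted p = 0.417) and -0.52 in females (adjusted p = 0.397). The average of -0.50 was not called (adjusted p = 0.167), but without female TAC 3 it was -0.67 and was called (adjusted p = 0.0479). Over the alternatives the 1415996_at differences ran from -0.73 to 0.38 in males, -0.85 to 0.07 in females and -0.69 to 0.22 averaged. In each of these comparisons 1 alternative turned the sign. In both sham groups, arrays 1 and 2 lay above arrays 3 and 4 on both probe sets. With the Gapdh ratio in the model, 1415997_at was -0.63 in males and -0.84 in females and was not called (adjusted p = 0.551 and 0.257; -0.74 averaged, 0.313). In males the adjusted p ranged from 0.000579 to 0.551 over the alternatives, and in females from 0.000484 to 0.257.

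For Sod2, Cat and Txnip, the disagreement between probe sets was measured on each array as the log2 ratio of the next brightest over the brightest. Both the comparison and its genes were chosen after the data were seen, so its p values are no independent test. Sod1 and Sod3, which also have several probe sets, were left out. For Txnip, 1415997_at over 1415996_at lay between -0.98 and -0.46 on the male sham arrays and between -1.77 and -1.21 on the male TAC arrays. The female values were -0.98 to -0.40 after sham and -1.64 to -1.21 after TAC. These groups did not overlap in either sex, with a difference of -0.89 in males and -0.84 in females (exact permutation test, 2-sided, p = 0.0286 in each, the smallest possible, adjusted over 6 ratios 0.0571). For Sod2, 1417193_at over 1448610_a_at lay between 0.07 and 0.35 in male sham and between -0.43 and -0.21 in male TAC, a difference of -0.50 (exact p = 0.0286, adjusted 0.0571). In females the difference was -0.24 and the groups overlapped (exact p = 0.0857, adjusted 0.0857). For Cat, 1416430_at over 1416429_a_at differed by -0.43 in males and -0.58 in females (exact p = 0.0857 and 0.0571, adjusted 0.0857 in each). No ratio passed the adjusted threshold of 0.05, and the adjusted values of 0.0571 are the smallest found.

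**Figure D3:**
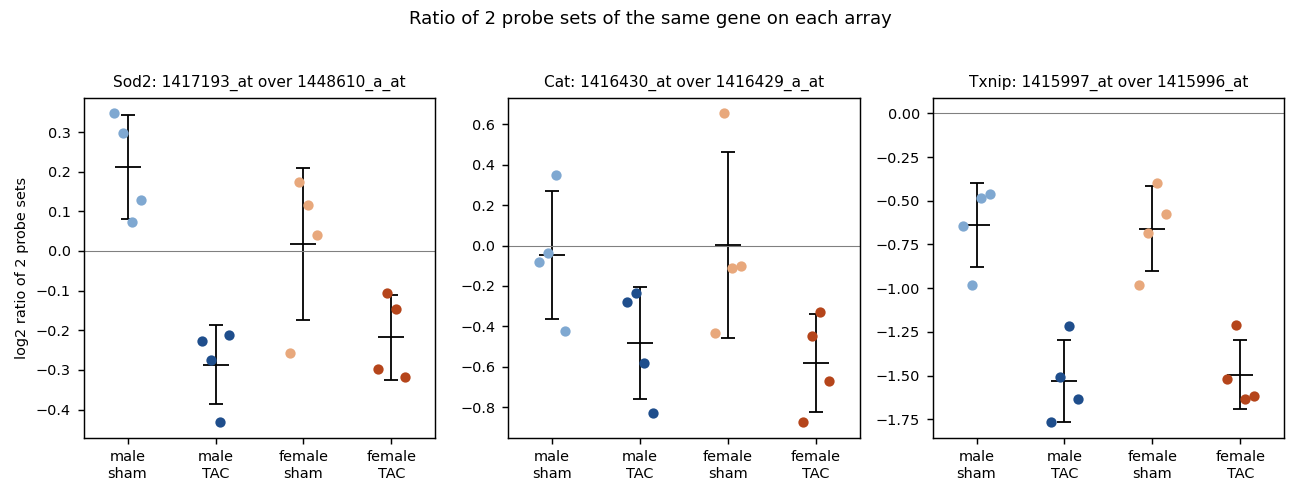
Log2 ratio of the next brightest over the brightest probe set of Sod2, Cat and Txnip on each array, by group; points are animals, the long bar the mean and the whiskers 1 SD (n = 4). The Txnip ratio separates TAC from sham in both sexes and the Sod2 ratio does so in males, while the Cat groups overlap.

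Nqo1, a quinone reductase and a known NRF2 target, was called in males and not in females. The male sham arrays read 785, 621, 771 and 684, and the male TAC arrays 1049.9, 1212, 1073 and 892. The female sham arrays read 859, 789.8, 969 and 748, and the female TAC arrays 918, 768, 1077 and 961. The male groups did not overlap and the female groups did. Nqo1 rose 1.47-fold in males (0.55, SE 0.14, adjusted p = 0.00834), and the female difference was 0.14 (-0.15 to 0.43, adjusted p = 0.565). The difference between the sexes' responses was itself -0.41 (SE 0.20, unadjusted p = 0.0484, adjusted p = 0.756) and was not called. Averaged over the sexes, Nqo1 rose by 0.35 (adjusted p = 0.0113), but this call was lost with the 18S signal (0.27, adjusted p = 0.273) and with the Gapdh ratio in the model (0.40, adjusted p = 0.29). The adjusted p of the average ranged from 0.00245 to 0.29 over the alternatives. The male call was lost with the 18S signal (0.46, adjusted p = 0.202) or the Gapdh ratio in the model (0.61, adjusted p = 0.205), and its adjusted p ranged from 0.00491 to 0.205 over the alternatives.

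Hmox1, which degrades heme, was dim and scattered. Its signal was 87.5, 281, 269.6 and 60.6 on the male sham arrays and 151, 110.4, 68.6 and 168 on the male TAC arrays. The female arrays read 255, 214, 185 and 228 after sham and ranged from 129.9 to 232 after TAC. The lowest of these lay under the 131 that marked the dimmest 40% of probe sets, so changes are poorly resolved. The differences were -0.26 in males (-1.07 to 0.56, adjusted p = 0.712) and -0.29 in females (-1.10 to 0.53, adjusted p = 0.693).

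The response to banding did not pass the test of a difference between the sexes for any of the 16 probe sets. By limma, 0 of 13576 probe sets (0%) passed in that comparison, and 897 had an unadjusted p under 0.05, 1 of them a member's, Nqo1. For Gpx1 the difference of the responses was -0.12 (adjusted p = 0.937), for Gpx3 0.02 (0.994) and for Prdx3 -0.06 (0.974). Between the sham groups, no member was called, where 0.309% of all probe sets were. An unadjusted p under 0.05 by limma was found there for 1 leading and 2 of all 16 probe sets, beside 1424 of all 13576. Sod3 1417633_at was lower in females by 0.60 (SE 0.19, adjusted p = 0.26) and its sham groups did not overlap, as for 7.09% of all probe sets. Between the TAC groups no member was called, where 0.0663% of all probe sets were. None had an unadjusted p under 0.05 there, beside 874 of all 13576 probe sets.

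Genes whose arrays ran most like a member's were found by the root mean square difference of centred log2 signals over 16 arrays, a description that shares banding as its main source of spread. Lgals1 was nearest to both Gpx1 (0.14 against a spread of 0.42 for Gpx1 itself) and Gpx3 (0.18 against 0.49). Ppib and Bicc1 followed for Gpx1, and Mafk and Des for Gpx3. Nedd4 (0.11 against 0.30), Scp2 and Myl2 were nearest to Prdx3. For Txnip 1415997_at, the nearest were Smyd1, Lgals4 and Nr1d1, all at 0.43 to 0.44 against a spread of 0.83.

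Genes of the same pathways were read from 10 lists, on each gene's leading probe set in TAC minus sham averaged over the sexes. In that contrast 26.5% of all genes were called, and a call of the average was not always a call in each sex. Of 78 list genes tested, 11 rose and 26 fell. With the 18S signal in the model 5 rose and 14 fell, and with the Gapdh ratio 2 rose and 6 fell. Of the 37 calls, 18 were kept with the 18S signal and 8 with the Gapdh ratio: Gpx8, Txn1, Idh2, Nnt, Gstm1, Gstm7, Gstk1 and Cul3. Under every other alternative 27 were kept, and the 10 that were lost at least once were Gpx8, Glrx, Mlx, Mlxip, Pgd, Me1, Gstt2, Sqstm1, Atp7a and Pex7. Pgd, Me1 and Gstt2 are named here for that reason, after their values were seen. The other glutathione peroxidases and peroxiredoxins had 3 of 5 tested that rose and none that fell: Gpx7 (0.57, adjusted p = 0.00272), Gpx8 (0.50, 0.024) and Gpx4 (0.28, 0.00875), of which Gpx4 reduces lipid peroxides. All 3 rose in males, and in females they were 0.39, 0.30 and 0.21 in the same order and not called (adjusted p = 0.184, 0.43 and 0.218). Prdx2 was -0.11 (adjusted p = 0.288). The Gpx8 call was lost without female TAC 5, male sham 2 or female sham 2, with adjusted p values of up to 0.0529.

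In the thioredoxin and glutaredoxin system, 1 gene rose and 3 fell of 8. Txn1, the cytosolic thioredoxin that Txnip inhibits, rose in males (0.73, adjusted p = 2.73e-05) and in females (0.45, adjusted p = 0.00332). Txnrd2, the mitochondrial thioredoxin reductase that regenerates the reductant of Prdx3, fell on average (-0.93, adjusted p = 0.00947). Txnrd2 was called in females (-1.21, adjusted p = 0.028) and not in males (-0.65, adjusted p = 0.247). Its averaged call was lost with the 18S signal or the Gapdh ratio in the model. The reductant itself, Txn2, was -0.02 (adjusted p = 0.909), on a probe set that may share sequence with similar genes. Srxn1, which repairs overoxidised peroxiredoxins, fell on average (-0.87, adjusted p = 0.00353). It was called in males (-1.29, adjusted p = 0.0046) and not in females (-0.46, adjusted p = 0.336). Glrx fell on average as well (-0.35, adjusted p = 0.0253), and was called in neither sex (adjusted p = 0.117 in males and 0.197 in females). The Glrx call was lost with arrays centred on the median, and without female TAC 3, male sham 4, or female sham 1 or 4. It was also lost with the 18S signal or the Gapdh ratio in the model. Among the relatives of Txnip and the Mondo factors, Mlx (-0.37, adjusted p = 0.0321) and Mlxip (-0.36, adjusted p = 0.0312) fell on average, of 4 tested. Arrdc1 (-0.08) and Mlxipl (0.04) were not called. Mlx was called in neither sex (adjusted p = 0.276 in males and 0.106 in females), nor was Mlxip (0.206 and 0.142). Both Mondo factor calls were lost with each array centred on its median, with the 18S signal or the Gapdh ratio in the model, and without male TAC 1, male sham 2 or female sham 4. In all, the Mlx call was lost under 13 and the Mlxip call under 9 of 27 alternatives, 8 and 5 of them omissions of 1 array. The further arrays were male TAC 2, female TAC 1 or 3, male sham 3 and female sham 2 for Mlx, and female TAC 5 and female sham 3 for Mlxip.

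The genes that make glutathione or supply NADPH had 1 of 9 that rose and 5 that fell. Nnt fell from a mean of 16701 to 10045 in males and from 16444 to 9925 in females (averaged -0.73, adjusted p = 3.57e-07). The strain carries a deletion in Nnt, so this fall of signal cannot be read as a loss of NADPH supply. The mitochondrial Idh2 (-0.57, adjusted p = 0.000823), the cytosolic Idh1 (-0.73, adjusted p = 0.00183) and the glutathione reductase Gsr (-0.56, adjusted p = 0.00416) fell on average as well. Idh1 was called in females (-0.82, adjusted p = 0.0197) and not in males (-0.65, adjusted p = 0.0565). Gsr was called in males (-0.73, adjusted p = 0.0116) and not in females (-0.38, adjusted p = 0.207). The averaged Idh1 and Gsr calls were lost with the 18S signal and with the Gapdh ratio in the model, and the Idh2 call with the 18S signal. Of the other calls of that list, Pgd, which rose, was lost under 12 of 27 alternatives (without male TAC 2 or 5, female TAC 2 or 5, male sham 1, 2 or 3, or female sham 1 or 4) and Me1, which fell, under 10 (without male TAC 1, female TAC 1 or 2, male sham 2 or 4, or female sham 3). Of 16 glutathione transferases, 7 fell and none rose, those with the smallest p being Gstk1 (-1.05, adjusted p = 4.7e-07), Gstm1 (-0.82, adjusted p = 5.59e-07), Gstm7 (-0.89, adjusted p = 3.3e-06) and Gstm5 (-0.52, adjusted p = 5.04e-05). With each array centred on its median, 7 transferases fell and 1 rose. The Gstm1, Idh1 and Pgd probe sets may share sequence with similar genes.

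Of the NRF2 and FoxO regulators, 1 of 10 rose and 2 fell. Cul3, which builds the ligase that degrades NRF2, fell (-0.73, adjusted p = 1.04e-06), Mafk, a small Maf partner of NRF2, rose (0.56, adjusted p = 0.0013) and Sqstm1 fell (-0.37, adjusted p = 0.00823). The Mafk and Sqstm1 calls were each lost with the 18S signal and with the Gapdh ratio in the model. Nfe2l2, the gene of NRF2 itself, was -0.13 (adjusted p = 0.449) and Keap1 was -0.07 (adjusted p = 0.668). Nfe2l1 was 0.31 (adjusted p = 0.145). In heme and iron handling, 1 of 7 rose, the transferrin receptor Tfrc (1.23, adjusted p = 3.95e-05), and 2 fell, the iron exporter Slc40a1 (-0.72, adjusted p = 0.00218) and the ferritin chain Fth1 (-0.42, adjusted p = 0.000498). Hmox2, the constitutive heme oxygenase, was 0.23 (adjusted p = 0.227). The Fth1 probe set may share sequence with similar genes.

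The copper delivery list, on parts of which Sod1 and Sod3 depend, had 3 of 5 genes that rose and none that fell: Cox17 (0.39, adjusted p = 0.000214), Atox1 (0.48, adjusted p = 0.000453) and Atp7a (0.70, adjusted p = 0.0464). Atox1 was called in males (0.70, adjusted p = 0.000785) and not in females (0.27, adjusted p = 0.188). Atp7a was called in neither sex (adjusted p = 0.486 in males and 0.0755 in females). The Atp7a call was lost under 17 of 26 alternatives, 11 of them omissions of 1 array (male TAC 2, 4 or 5, any female TAC array, male sham 2 or 4, or female sham 1 or 4), so that most left 2 of the 5 genes called. With the 18S signal in the model 1 copper gene was called and with the Gapdh ratio 0. The Cox17 and Atox1 probe sets may share sequence with similar genes. Slc31a1 was -0.11 (adjusted p = 0.634) and Ccs, the copper chaperone of Sod1, was 0.06 (adjusted p = 0.755). Of the peroxisomal genes, 4 of 8 fell and none rose: Ephx2 (-0.73, adjusted p = 1.17e-06), Abcd3 (-0.59, adjusted p = 1.53e-05), Hsd17b4 (-0.39, adjusted p = 0.00623) and Pex7 (-0.33, adjusted p = 0.0137). Of the sources of reactive oxygen species, 1 of 6 rose, the oxidase subunit Cyba (0.44, adjusted p = 0.00455), and 1 fell, xanthine dehydrogenase, Xdh (-0.77, adjusted p = 0.0144). Cyba was called in males (0.59, adjusted p = 0.0124) and not in females (0.30, adjusted p = 0.217). Xdh was likewise called in males (-1.29, adjusted p = 0.00792) and not in females (-0.25, adjusted p = 0.664). Both averaged calls were lost with the 18S signal and with the Gapdh ratio in the model. Maoa was 0.14 (adjusted p = 0.483) and Ncf4 was 0.34 (adjusted p = 0.513). No gene of these lists passed the test of the sexes' difference.

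**Figure D4:**
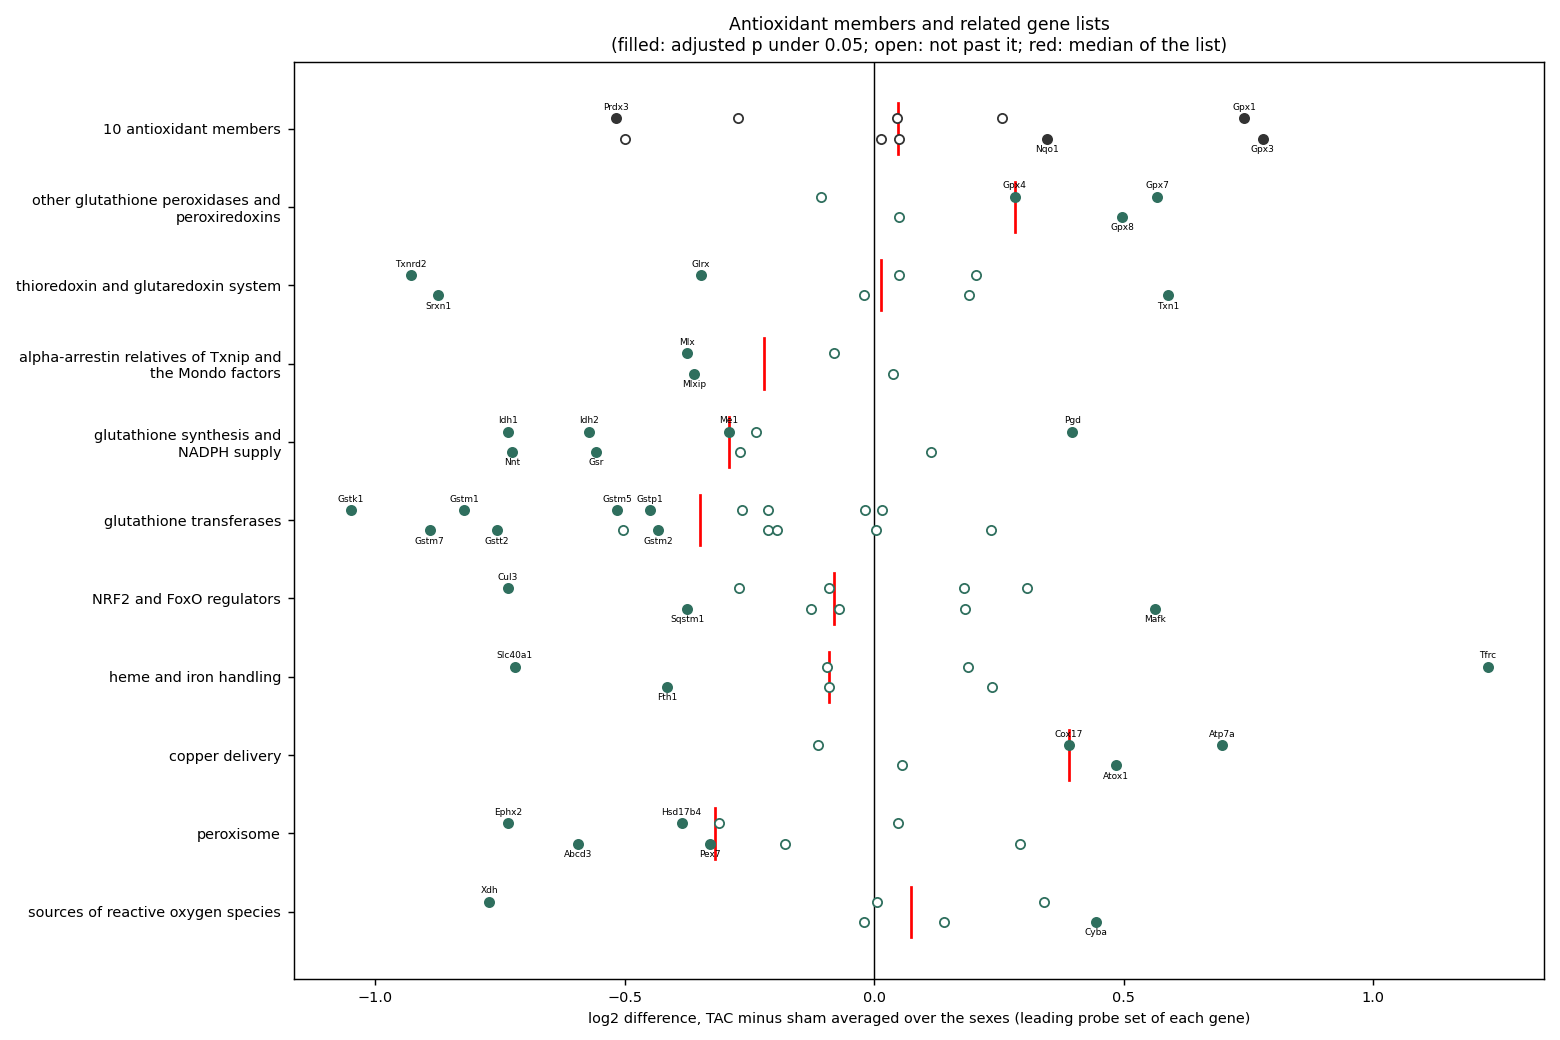
Difference TAC minus sham averaged over the sexes for the leading probe set of the 10 members (top) and of the genes of 10 related lists. Filled points passed an adjusted p of 0.05 and carry their symbol, open points did not, and the red bar is the median of the list; filled points of the glutathione transferases lie left of 0 and those of the other glutathione peroxidases right of it.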

How the data were processed

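The deposited values are linear signal intensities of 22690 probe sets on 16 arrays, made by the authors with GCOS, per the submitters' processing notes; GCOS settings are not given in the sources used here. From the values, each array had been scaled to a common trimmed mean. Genes were named from the platform annotation (20380 probe sets with 1 symbol, 691 with several, 1555 with none). A pseudocount of 16 was added before log2. The 64 control probe sets and the dimmest 40% were left out, and limma 3.58.1 in R 4.3.3 (lmFit, eBayes with intensity trend) fitted 4 group means to all 16 arrays, with 6 contrasts, 2-sided, adjusted by Benjamini-Hochberg over 13576 probe sets. The scripts were tested on simulated data. Members and gene lists were chosen with earlier results of these data known. Every member probe set is named. Of each pathway list, up to 4 genes with the smallest p in the averaged contrast are named, and the plot of the lists also labels the others called. Ccs, Txn2, Nfe2l2 and Keap1 lie outside that rule and are named after their values were seen. The 3 likest genes are named for the 4 members with the smallest p. Arrays give no depth, so their number, 4 a group, limits the precision.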

Additional observations from a re-analysis of the deposited data

Results flagged for a closer look

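Within the 4 groups of 4 arrays, 64 sets of member signals were examined for a single array whose gap to its neighbour, divided by the group's range, was above Dixon's critical value. Chance gives this in about 1 in 20 groups, and 4 were found. Sod3 1417634_at read 157 on male TAC 2, where the other male TAC arrays read 350.3 to 389. Cat 1416429_a_at read 4168 on female TAC 1, where the next array read 2966 and the lowest 2773. Gpx3 read 2826 on female sham 4, where the next array read 2163 and the lowest 2099.5. Prdx3 read 6676 on female sham 1, where the next array read 5758 and the lowest 5593. The causes were not tested.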

How the results depend on the processing

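Of 2637 values of single probe sets under the alternatives, 2596 kept their side of the threshold, 33 lost a call and 8 gained one. No called value changed sign, and 157 values turned sign where neither was called. The count of the 10 genes called, 4 in males, 3 in females and 4 averaged, moved by over 1.5 times in 5 cases. With the 18S signal as a covariate it was 2 in males (and 3 averaged). With the Gapdh ratio as a covariate it was 0 (males), 1 (females) and 1 (both sexes averaged), and limma there called 640 of 13576 probe sets. That ratio did not overlap between TAC and sham in either sex, so the covariate and banding cannot be told apart. Counting all 16 probe sets, 7 were called on average, 6 in males and 4 in females. Leaving out 1 array at a time gave 4 to 4 in males, 3 to 3 in females, 4 to 5 averaged and 0 to 0 in the other comparisons. Title numbers are shared between groups, but same-number arrays deviated together with correlations of only -0.03 to 0.11 over 19 pairs. The fit with the number as a replicate block called 4 genes in males, 3 in females and 4 over both sexes, and among the members' probe sets it ended 1 call, Cat 1416430_at (-0.19, adjusted p = 0.138 by limma). Of the 78 list genes it called 9 higher and 23 lower, against 11 and 26. Centring each array on its median moved the share of calls that were higher from 45.2% to 54.7% in males, 42.9% to 64.4% in females and 44.9% to 60.3% averaged, and the median of all probe sets in females from -0.03 to 0.08. Sod2 1417193_at gained its female call with quantile normalization (-0.27, adjusted p = 0.0321) and array weights (-0.26, adjusted p = 0.0363). The fit on only the groups compared has no value for comparisons that use all 4 groups. The probe set ratios and the pathway list counts were added after seeing the data.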
